A study of Mus musculus with 5 samples.

Results

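The 6 loci described here are windows of the mouse genome (build mm9) around Pomc, the gene of the ACTH precursor, and around Fos, Stat3, Junb, Bcl3 and Cebpb, genes known to respond to cytokines that signal through Stat3. They were chosen by position: every entry of the deposited list of Stat3 and glucocorticoid receptor (GR) regions whose chromosome and start fall in one of the 6 windows was taken, which gave 37 of 5670 regions, or 0.653% of the list. The windows were set with the list known, so the counts and classes below describe these loci and are given with no test. The study used ChIP-seq, in which DNA that comes down with an antibody to a protein is sequenced, in AtT-20 cells, a mouse pituitary line used as a model of corticotrophs. Treatment lasted 20 min and was with the cytokine LIF (leukemia inhibitory factor), with dexamethasone (Dex, a synthetic glucocorticoid) or with both, and 5 ChIPs were combined into each library. Stat3 was precipitated from cells given LIF or Dex+LIF, and GR from cells given Dex or Dex+LIF, 1 library each. The fifth library, a non-specific rabbit IgG control, was combined from the treatments, and no library came from untreated cells alone. The Stat3 libraries combined antibodies to Stat3 and to phosphorylated Stat3. The list pools the ChIP libraries and gives each region only a position and a number, from 1 to 13, of a cluster assigned by the authors. It holds no signal, so binding before and after treatment, the depth, the IgG background and the corticotroph identity of the cells could not be read from it, and no cluster number is tied here to a factor or a treatment.

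LIF binds a receptor that contains gp130, whose Jak kinases phosphorylate Stat3, and the phosphorylated dimer enters the nucleus and binds DNA. Glucocorticoids release GR to the nucleus, where it binds its own sites or is brought to DNA by other factors, Stat3 among them. In corticotrophs, LIF is known to raise Pomc transcription and glucocorticoids to lower it, which closes the feedback loop of the stress axis. The series asks how direct and indirect recruitment of the 2 factors relates to transcription. The region lists at single genes show which of the authors' classes stand there.

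The promoters of all 6 genes were found in the RefSeq table (GRCm38.p6, 250 bases before to 50 after the annotated start). The 250 bases before the start of Pomc and Fos are shown because both hold the letters of a TATA box, TATAAA, in capitals, and those of Stat3 because they alone hold the hexamer bound by a GR monomer, AGAACA, in capitals. These GRCm38.p6 positions cannot be set beside the mm9 positions of the regions.
Pomc, chr12:3954695-3954944, plus strand: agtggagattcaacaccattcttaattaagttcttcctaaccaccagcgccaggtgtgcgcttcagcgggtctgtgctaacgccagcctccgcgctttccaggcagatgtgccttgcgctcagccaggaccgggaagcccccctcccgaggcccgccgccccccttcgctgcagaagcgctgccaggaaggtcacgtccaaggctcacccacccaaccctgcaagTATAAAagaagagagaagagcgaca
Fos, chr12:85473640-85473889, plus strand: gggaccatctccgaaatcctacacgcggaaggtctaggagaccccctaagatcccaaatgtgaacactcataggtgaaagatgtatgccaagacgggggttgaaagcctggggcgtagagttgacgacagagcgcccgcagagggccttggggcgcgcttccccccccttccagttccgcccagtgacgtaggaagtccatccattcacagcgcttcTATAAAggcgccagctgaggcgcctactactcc
Stat3, chr11:100939541-100939790, minus strand: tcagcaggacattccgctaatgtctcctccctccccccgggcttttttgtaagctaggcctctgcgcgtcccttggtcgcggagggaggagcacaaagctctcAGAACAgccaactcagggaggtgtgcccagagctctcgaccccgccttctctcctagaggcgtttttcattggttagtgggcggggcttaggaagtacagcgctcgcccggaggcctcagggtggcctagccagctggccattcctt
The TATAAA letters begin 25 bases before the start in Pomc and 33 bases before it in Fos. They begin at the annotated start itself in Junb and after it in Cebpb, which is not where a TATA box stands. Searched on both strands of the 300 bases, TATAAA stood in 4 of the 6 promoters (Pomc, Fos, Junb and Cebpb) and in 13.6% of the 32851 promoters of the table. The palindrome TTCNNNGAA, bound by Stat dimers, stood in none of the 6 and in 8.3% of all promoters. Its narrower form TTCCNGGAA, which lies within it, also stood in none, against 1.15% of all. The GR hexamer TGTTCT, whose other strand reads AGAACA, stood in Stat3 alone, against 19% of all promoters. The full GR palindrome, that hexamer on both strands with 3 bases between, stood in none of the 6 and in 0.00913% of all. The GC content of the 6 windows ran from 58.7% for Fos to 80.7% for Cebpb, beside a median of 52.7% over the table. The sequences under the listed regions themselves were not used here, since they need a genome of mm9.

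The 6 loci differed widely in how many regions they held. Their clusters are given here beside the list, where cluster 3 makes up 43.5% of regions and clusters 4, 5 and 6 together 23.6%. Most loci held too few regions to set their share of cluster 3 apart from that of the list. Pomc had 5 regions, all in clusters 4, 5 and 6. Fos had 1 and Junb 3, all in cluster 3, the largest class of the list, and Bcl3 had 4 of 5 there. Stat3 had 6 regions, 4 of them in cluster 3. Cebpb had 17 regions from 6 clusters, 45.9% of all 37. No region of the 6 loci belonged to clusters 1, 8, 9, 10, 12 or 13. These are small classes, with 3.49%, 0.829%, 0.511%, 0.106%, 1.04% and 2.05% of the list. At those shares few of 37 regions would fall there. Region numbers follow position along each chromosome, and at each locus they ran without a break, so none of the 204 numbers that lack an entry fell between its first and last region.

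**Figure D1:**
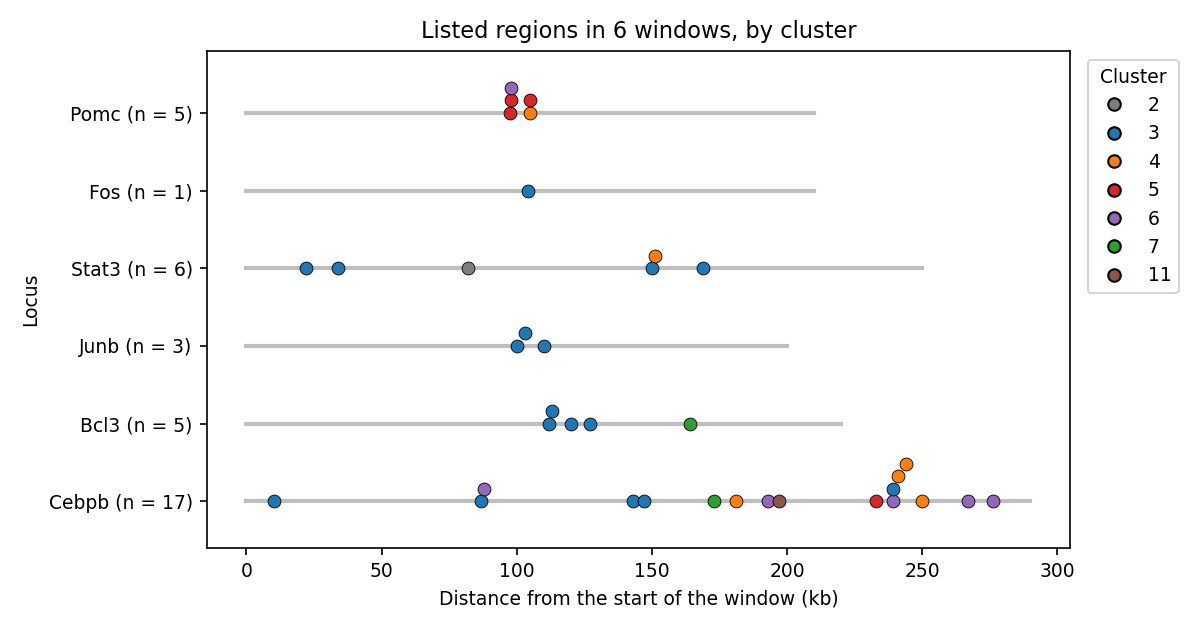
Position of each listed region along the 6 windows (distance from the start of the window, kb), 1 dot per region, coloured by the authors' cluster; grey bars are the windows, and dots under 4 kb from the previous dot are raised only to keep them visible. The 5 Pomc regions form 2 tight sets without cluster 3 (blue), the 3 Junb regions are all blue, and the 17 Cebpb regions are spread along their window.

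Pomc encodes proopiomelanocortin, which corticotrophs cut into ACTH. Its window ran from 3.85 to 4.06 Mb of chromosome 12. In the RefSeq order of protein-coding genes its neighbours are Dnmt3a, a DNA methyltransferase, and Efr3b. All 5 regions lay within 7.21 kb. A first set stood at positions 3947625, 3947835 and 3948030, in clusters 5, 5 and 6, with 210 and 195 bp between them. A second set followed 6565 bp on, at 3954595 in cluster 4 and 3954835 in cluster 5, which are 240 bp apart. Outside these sets the next listed region was 410 kb before (position 3537615, cluster 2) and 1390 kb after (5344345, cluster 4). Only 25.6% of side-by-side windows of 210 kb held any region, so empty surroundings are common. Of all windows of 210 kb laid side by side over the list, 1.16% held at least 5 regions (140 of 12085). At the mean density of chromosome 12, a window of this length would hold 0.483 regions.

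The first 3 Pomc regions were also closer to each other than nearly all runs of 3 regions in the list. The first 3 spanned 405 bp, and among 5630 runs of 3 consecutive regions 2 were within that span (0.0355%), Pomc being one and a run of 400 bp on chromosome 11 the other. A region with 2 or more others within 500 bp was found 12 times in the list (0.212%), and 3 of these are the first 3 Pomc regions. The 2 regions of the second set were 240 bp apart, and 3.38% of the gaps of the list were at most 500 bp (191 of 5650). Linked at gaps of up to 10 kb, the 5 Pomc regions form 1 group. The list holds 19 groups of 5 or more regions, of which 4 had no region in cluster 3 (21.1%) and 3 lay wholly in clusters 4, 5 and 6 (15.8%). Pomc is counted in both. Clusters 4, 5 and 6, which are the classes of the Pomc regions themselves, together make up 23.6% of the list. Counting regions within 1 kb as 1 leaves 2 at Pomc.

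At Fos, 1 region was listed, in cluster 3. Fos encodes c-Fos, an immediate early transcription factor that pairs with Jun proteins, and its neighbours in gene order are Tmed10 and Jdp2, a repressor of AP-1. Its window, 86.71 to 86.92 Mb of chromosome 12, held 1 region, at 86814495. The next listed regions were 208 kb before it (86606115, cluster 6) and 1276 kb after it (88090605, cluster 3). A single region is common, since 25.6% of windows of 210 kb held at least 1, so its presence does not set Fos apart. Cluster 3 makes up 43.5% of the list, and the class of 1 region does not set it apart either.

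Junb encodes JunB, a Jun family partner of c-Fos, and lies between Prdx2 and Hook2 in gene order. Its window, 87.4 to 87.6 Mb of chromosome 8, held 3 regions, at 87500475, 87502780 and 87509835, which span 9.36 kb. At least 3 regions were found in 4.75% of windows of 200 kb. The next regions were 530 kb before (86970505, cluster 3) and 1297 kb after (88807105, cluster 2). Only 24.8% of windows of 200 kb held any region, so empty surroundings are common. The 3 regions form 1 group at 10 kb, all in cluster 3. Groups of 3 or more regions make up 3.46% of the 4710 groups of the list, single regions included. Of these 163 groups, 11 were wholly in cluster 3 (6.75%), and the groups at Junb and Bcl3 are among these 11.

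Bcl3 encodes an atypical member of the I-kappa-B family that acts in the nucleus with NF-kappa-B subunits. It lies beside Cblc, a ubiquitin ligase gene, in gene order. Its window, 20.29 to 20.51 Mb of chromosome 7, held 5 regions, a number reached by 1.44% of windows of 220 kb. The first 4 stood at 20401795, 20402875, 20409735 and 20417305, all in cluster 3 and within 15.5 kb, with the closest 1080 bp apart. The fifth stood 36.2 kb further on, at 20453505, in cluster 7. That class held 2 of the 37 regions (5.41%) and 11% of the list. Of the 50 groups of 4 or more regions in the list, 2 were wholly in cluster 3 (4%), and Bcl3 is one of them. The next regions outside were at 20214945 and at 20518485, both in cluster 3, the latter only 8.48 kb beyond the edge of the window.

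Stat3 encodes the factor that was precipitated, and lies beside Stat5a, the gene of a related Stat protein, and Cavin1. Its window, 100.65 to 100.9 Mb of chromosome 11, held 6 regions, a number reached by 0.936% of windows of 250 kb. Unlike at Pomc and Junb, they were spread out, over 147 kb with a median gap of 17.7 kb. The regions at 100672040 and 100683990 were in cluster 3, and that at 100731905 was in cluster 2. It was the only region of cluster 2 in the 6 loci (2.7% of their regions), and that cluster makes up 11.6% of the list. A pair followed, 1400 bp apart, at 100799685 in cluster 3 and 100801085 in cluster 4. The last was at 100818785, in cluster 3. Of the 6 regions, only that pair had a neighbour within 10 kb. Outside, the nearest were at 100481455 and 100943975, both in cluster 3, and the latter lay 44 kb past the window. Without a gene annotation of mm9, the regions cannot be divided between Stat3 and the Stat genes next to it.

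Cebpb encodes C/EBP-beta, a transcription factor of the acute phase response, and in gene order stands between Tmem189 and Ptpn1, the gene of a phosphatase that acts on Jak kinases. Its window was the longest, 167.41 to 167.7 Mb of chromosome 2, and also the densest, with 5.86 regions per 100 kb, against 0.476 at Fos and 1.5 to 2.4 at the other 4 loci. Laid side by side, 1 of 8760 windows of 290 kb held at least 17 regions (0.0114%), on chromosome 11 with 25 regions from 117741185. The share was 0.0229% with windows laid from the first listed region and 0.0228% with windows shifted along by 0.5 of their length. The Cebpb regions themselves were divided by the edge between adjacent windows, the fuller of which held 13, regions past the locus included. Regions of 6 or more clusters were found in 10 such windows (0.114%). Only the 114 windows with at least 6 regions (1.3%) could hold that many clusters. The 5 fullest windows, with 25, 14, 13, 12 and 11 regions, held 5, 7, 5, 6 and 6 clusters, so 6 clusters at Cebpb do not set it apart from windows as full.

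The Cebpb window is described here in order of position, beside list shares of 43.5% for cluster 3 and 23.6% for clusters 4, 5 and 6. Of its first 5 regions, 4 were in cluster 3 (167420265, 167496895, 167552900 and 167557005) and 1 in cluster 6 (167497795). The other 12, from 167583105 to 167686175, had 1 region in cluster 3 and 9 in clusters 4, 5 and 6, a division chosen after the values were seen. They began with cluster 7 at 167583105, cluster 4 at 167590815, cluster 6 at 167603090 and cluster 11 at 167607325. Next came a group of 6 within 17.6 kb. It started with cluster 5 at 167642700, cluster 6 at 167649075 and cluster 3 at 167649375, the last pair 300 bp apart. It ended with cluster 4 at 167651175, 167653985 and 167660265, 3 of the 4 cluster 4 regions of the locus. Only 9 of the 4710 groups of the list had 6 or more regions (0.191%). The last regions, at 167677355 and 167686175, were both in cluster 6. The nearest regions outside were at 167329755 and 167750820, both in cluster 3. Whether any of them belong to Cebpb or to Ptpn1 was not analysed here.

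**Figure D2:**
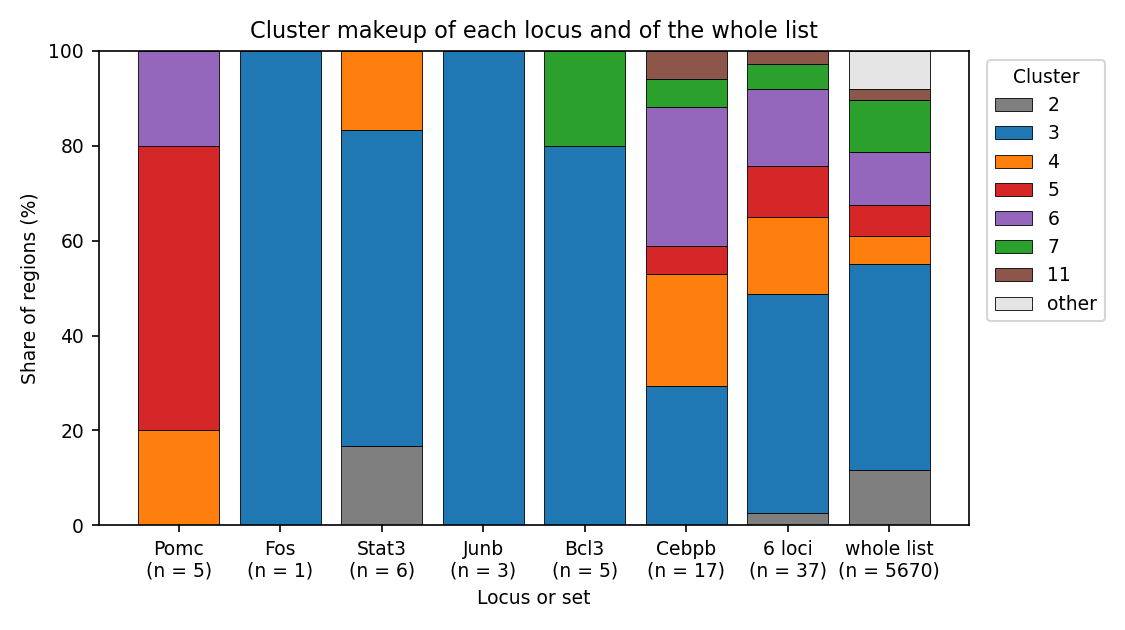
Share of regions (%) in each of the authors' clusters for the 6 loci, for the 6 together and for the whole list, with the number of regions under each bar; other stands for clusters with no region at the 6 loci. Cluster 3 takes 0 of 5 regions at Pomc, 5 of 17 at Cebpb and 3 of 3 at Junb, while its share over the 6 loci together, 45.9%, lies near the 43.5% of the list.

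Taken over all 37 regions, the share of cluster 3 was close to that of the list. The shares of the single loci, most of few regions, ran from 0% to 100%. Cluster 3 had 17 of 37 regions (45.9%, exact Clopper-Pearson 95% interval 29.5% to 63.1%), beside 43.5% of the list. Fos, Junb and Bcl3 together had 8 of 9 there (88.9%, interval 51.8% to 99.7%), which lies above the share of the list, but these loci were put together after their values were seen. Pomc had 0 of 5 (interval 0 to 52.2%) and Junb 3 of 3 (29.2% to 100%). For cluster 3, the interval of every single locus, these included, takes in the share of the list. Clusters 4, 5 and 6 had 16 of 37 regions (43.2%, interval 27.1% to 60.5%), beside 23.6% of the list. These 16 came from Cebpb (10 of 17, interval 32.9% to 81.6%), Pomc (5 of 5, 47.8% to 100%) and Stat3 (1 of 6, 0.421% to 64.1%). The interval at Cebpb lies above the share of the list, but 16 of its 17 regions have a neighbour within 10 kb, so it is no test. The interval at Stat3 takes the share of the list in. That at Pomc also lies above it, but clusters 4, 5 and 6 are exactly the classes of the Pomc regions. The 5 of 5 at Pomc follows from that grouping and enters the 16 of 37. Without Pomc the share of clusters 4, 5 and 6 was 34.4%, and without Cebpb 30% (6 of 20). The intervals cover counting error only and take regions as independent, which close neighbours are not.

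Seen from the clusters, the shares below stand beside the 0.653% of all listed regions that the loci held. Of cluster 4 they held 6 of 332 regions (1.81%), of cluster 5 4 of 377 (1.06%) and of cluster 6 6 of 629 (0.954%). Apart from 1 region of cluster 4 at Stat3, all of these came from Pomc and Cebpb. The 6 loci held 17 of the 2465 of cluster 3 (0.69%). Of clusters 7 and 2 they held 2 of 625 (0.32%) and 1 of 658 (0.152%), and of cluster 11 1 of 129 (0.775%). The regions of the 6 loci were close together. Of the 37, 30 had another listed region within 10 kb (81.1%), against 29.5% of the list. The median gap between consecutive regions of a locus was 6.86 kb, from 0.225 kb at Pomc to 17.7 kb at Stat3, against 111 kb over the list. A window that holds several regions must have shorter gaps than the list, so these values describe the choice of loci.

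**Figure D3:**
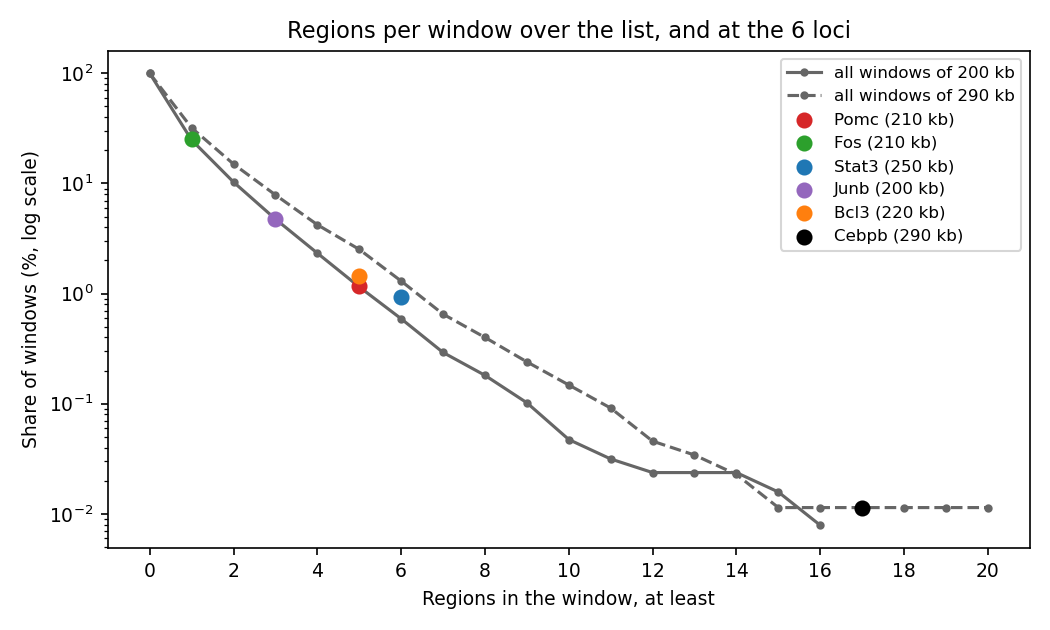
Share of windows (%, log scale) that hold at least the number of regions on the x axis, for side-by-side windows of 200 kb (solid) and 290 kb (dashed), with 1 coloured point per locus placed at its own count and at the share for its own window length. Fos lies at 25.6% and Junb at 4.75%, Bcl3, Pomc and Stat3 at 1.44%, 1.16% and 0.936%, and Cebpb at 0.0114%, which became 0.0229% and 0.0228% with the windows laid otherwise.

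The other genes of the LIF pathway considered here, Lif, Lifr, Il6st, Jak1, Jak2, Socs3, Pias3 and Ptpn11, were not analysed here, since placing them on the list needs an annotation of mm9.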

How the data were processed

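Bowtie (alignment), MACS 1.3.7.1 (peak calling) and mm9 are named in the submitters' processing notes, and per the labels' protocols reads were 36 bp. How regions of the libraries were joined and clustered is not given in the sources used here. Each entry of the list that the authors deposited gives a position (start equal to end in all 5670 entries), a region number and a cluster number, so no unit of signal was used and the depth is unknown. Positions are printed as listed, and their base, 0 or 1, is not stated.

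Regions with a start inside a window, edges included, were counted with Python 3.11.15 and pandas 2.3.3. Windows of each locus's length were laid side by side from position 0 of each chromosome, from the one that holds the first listed region to the one that holds the last. Groups join regions at gaps of up to 10 kb. The mean density of a chromosome uses the span between its first and last listed region. Gene order is that of the protein-coding genes in a RefSeq table of GRCm38.p6, and no position was carried between builds. All 6 members are named, and every region is given. The members, lists and windows were chosen with earlier results of these data known, and TATAAA, the groups and the division of the Cebpb regions were added after the data had been seen. There were no replicates and no tests.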

Additional observations from a re-analysis of the deposited data

How the results depend on the processing

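With regions within 1 kb counted as 1, Pomc went from 5 regions to 2, and with only the central part of each window Cebpb went from 17 to 8. No other count of a locus moved by more than 1.5 times under these settings or with windows widened by 50 kb on each side, and the total of 37 became 26, 39 or 32. The share of cluster 3 ran from 40.6% (without Bcl3) to 60% (without Cebpb). That of clusters 4, 5 and 6 ran from 30% (without Cebpb) to 50% (without Bcl3), beside 23.6% of the list. These shares come from the same 37 regions as the intervals given, so the intervals are no check on them. The share of regions with another nearby was 56.8% within 5 kb and 94.6% within 50 kb, beside 22.4% and 54.4% of the list. Laying the windows from the first listed region, or shifting them, moved the share of windows as full as Cebpb from 0.0114% to 0.0229% and 0.0228%, which is 1 window against 2, and that for Pomc to at most 1.32%. No paired analysis was possible because each group is 1 library. The unknown depth limits every count.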

Other observations

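Besides Pomc, 3 groups of 5 or more regions linked at 10 kb held no region of cluster 3. One on chromosome 10, from 59432645 to 59454095 (mm9), had 6 regions, in clusters 5 and 6 only. Another, on chromosome 11 from 103662435 to 103670015, had 5 regions, in clusters 4 and 6. The last, on chromosome 2 from 30118715 to 30121645, had 5 regions in clusters 12, 6, 2, 4 and 6. The run of 3 regions tighter than that of Pomc lay on chromosome 11 from 98993595 to 98993995, in clusters 3, 3 and 5. The genes at these positions were not analysed here.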
